A study of Mus musculus with 28 samples.

Results

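RNA was compared between whole single mouse morulae labelled MZKO (n = 6) and morulae labelled het (n = 3), which are 9 of the 27 embryos with values in the series (13 morulae and 14 blastocysts). All embryos were of the CD1 strain, an outbred stock, and a SMART-Seq ultra low input kit turned the polyadenylated RNA of each embryo into complementary DNA. The members of the comparison were taken from the genotype in the sample titles, not from any measured value, and the comparison is described across the genes of the morula table. The series title names CTCF, and in this field MZ commonly denotes that a gene's maternal as well as its zygotic product is missing. The labels give neither the allele, the part of the gene removed, a Cre driver nor the parents, and het is not spelled out either. A group of 4 morulae labelled del, a code the labels leave unexplained, was used for side-by-side values. MZKO embryos carry the title prefix C50, whereas het and del embryos share the prefix N2, so genotype and whatever the prefix marks cannot be told apart in MZKO against het. Blastocysts labelled MZ_KO (n = 3) and het (n = 4) gave the same contrast at the later stage.

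CTCF is a zinc finger protein that binds insulator sites, halts cohesin as it extrudes loops of chromatin, and so shapes which enhancers meet which promoters. The egg stores Ctcf transcripts and protein, and the embryo makes its own after genome activation. At the morula stage the outer cells begin to form the trophectoderm, which will pump fluid into the blastocyst cavity, and the inner cells keep the pluripotency programme.

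Read totals lay between 12136606 (MZKO 8) and 20414013 (MZKO 1) in the MZKO and het embryos, and at 1635553 in del 6, the shallowest library. The labels put all morulae in 1 sequencing batch. MZKO 1 and het 1 stood apart from the other morulae. Of the genes in the table, 2.40% and 2.48% had no read in MZKO 1 and het 1, against 8.11% to 16.2% in the other 7 MZKO and het embryos. Over the tested genes the values of MZKO 1 and het 1 had a Pearson r of 0.87 with each other, against 0.56 to 0.79 with the other morulae apart from del 6. The summed level of blood and immune markers was 4350 reads per 1000000 scaled reads (CPM) in MZKO 1 and 16365 CPM in het 1, against 69.4 to 1352 CPM in the other MZKO embryos and 473 and 730 CPM in het 5 and het 7. Oviduct markers summed to 3221 and 2036 CPM in MZKO 1 and het 1 and to at most 516 CPM in the other 7, and granulosa and cumulus markers to 1012 and 3382 CPM against at most 479 CPM. The summed level of Y-linked genes was 94.8, 45.2 and 92.5 CPM in MZKO 2, 6 and 8 and at most 9.23 CPM in the other MZKO and all het embryos. The part of the marker levels in the results was not tested, and the main count is given without MZKO 1 and het 1 and with the Y-linked level as a covariate. All 14 preimplantation embryo markers listed, such as Pou5f1, Nanog and Cdx2, were detected and tested.

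Ctcf itself was low in every MZKO morula. The gene (ENSMUSG00000005698, chromosome 8, 105636568 to 105682922 on the plus strand of GRCm38) stood at 26.1 CPM in het 1, 35.1 CPM in het 5 and 54.6 CPM in het 7. In MZKO embryos its level ran from 0 CPM in MZKO 8 through a median of 4.26 CPM to 8.68 CPM in MZKO 3, so MZKO and het did not overlap. The del embryos were as low, at 0 to 5.81 CPM with a mean of 2.30 ± 2.68 CPM (SD). Their log2 difference from het was −3.93 in limma (adjusted p = 0.572). The mean was 4.33 ± 3.60 CPM in MZKO and 38.6 ± 14.6 CPM in het (SD, n = 6 and 3), a difference of −34.3 CPM at a two-sided exact permutation p = 0.0238, the smallest this design allows. In the fit across all genes the log2 difference was −3.23 (SE 0.90) at an adjusted p = 0.169, which did not pass. Of the 19 tested genes of the CTCF and cohesin list, Ctcf included, 0 passed in limma, and 2 were higher and 2 lower at an unadjusted p under 0.05. Among all tested genes 0.412% passed as higher and 0.0703% as lower, and 5.05% and 3.61% at the unadjusted level.

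Few genes separated the genotypes past the threshold. Of 9953 genes that reached 10 CPM in 3 or more morulae, 41 (0.412%) were higher and 7 (0.0703%) lower in MZKO at an adjusted p under 0.05 in limma, on log2(CPM + 1), a scale that understates the change of genes near 0. At an unadjusted p under 0.05 there were 503 higher (5.05%) and 359 lower (3.61%) genes, and the median log2 difference of all tested genes was −0.02. All 48 called genes changed at least 2-fold on this scale and showed no overlap between MZKO and het embryos. No overlap held for 4.25% of all tested genes. The calls rest on the same values, so both traits were favoured in advance and are no separate support. Without MZKO 1 and het 1, 45 genes were higher and 9 lower of 9142 tested, and 38 of the 48 calls were kept. With the Y-linked level as a covariate there were 39 calls, which kept 28 of the 48. The number of calls was 234 when limma weighted the embryos by their quality and 28 by limma voom on the recovered reads. Leaving out MZKO 1 alone gave 90 calls and leaving out het 7 alone gave 29.

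**Figure D1:**
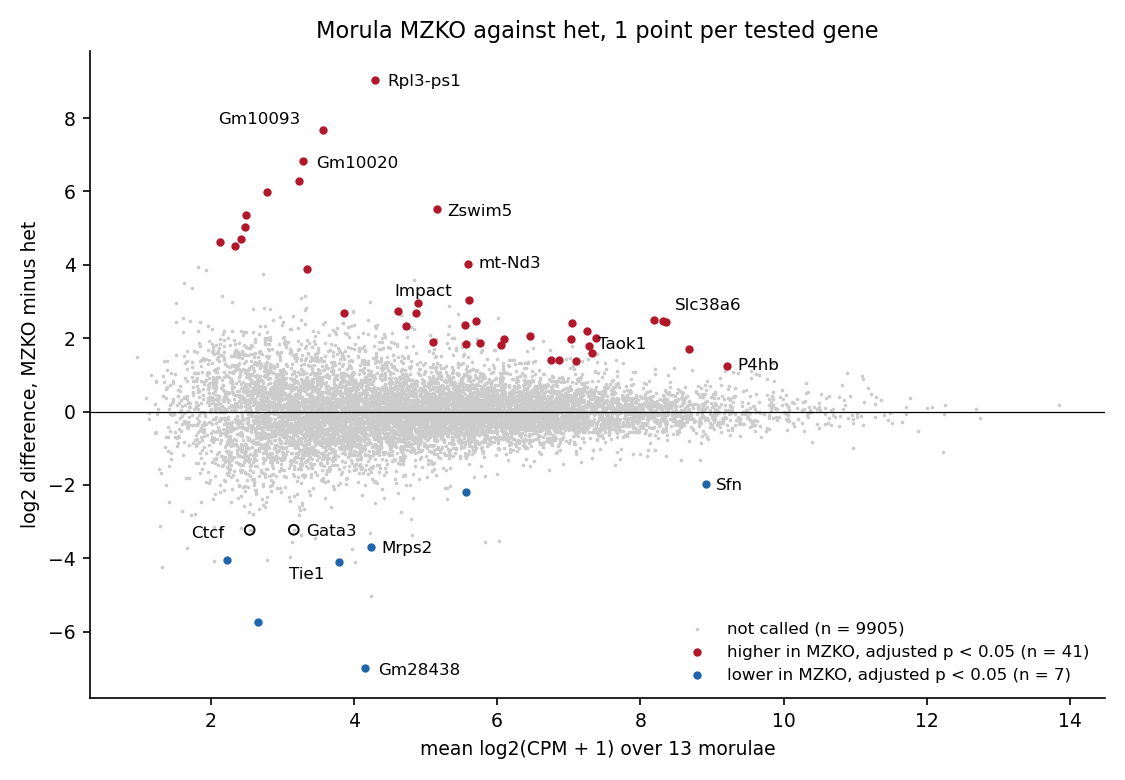
Each point is 1 of 9953 tested genes, with its mean log2(CPM + 1) over 13 morulae on the x axis and the log2 difference of MZKO minus het on the y axis. Red points (41 genes) were higher and blue points (7 genes) lower in MZKO at an adjusted p under 0.05, and open circles mark Ctcf and Gata3, which did not pass.

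Sfn was the protein-coding gene that fell with the smallest adjusted p. It encodes 14-3-3 sigma, an adaptor that binds phosphorylated proteins and is typical of epithelial cells. Sfn (ENSMUSG00000047281, chromosome 4, 133600556 to 133602168, minus strand) stood at 629, 1313 and 1161 CPM in het 1, 5 and 7, and at 142 CPM in the lowest, 267 CPM in the median and 369 CPM in the highest MZKO embryo. Every MZKO embryo was below every het embryo, and the del embryos, at 632, 818, 726 and 763 CPM, were above all MZKO embryos as well. The log2 difference was −1.96 (SE 0.29, adjusted p = 0.00148), the call was kept when any 1 MZKO or het embryo was left out, and MZKO was also below del (adjusted p = 0.0128).

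Mrps2, a protein of the small subunit of the mitochondrial ribosome, fell in MZKO and was as low in del. Mrps2 (ENSMUSG00000035772, chromosome 2, 28468066 to 28471178, plus strand) stood at 115, 109 and 112 CPM in het 1, 5 and 7. The MZKO embryos ran from 0.236 CPM in MZKO 8 through a median of 11.96 CPM to 15.8 CPM in MZKO 2, and del 2, 3, 4 and 6 stood at 7.58, 19.6, 21.2 and 14.5 CPM. Both groups thus lay far under het and overlapped each other. The log2 difference of MZKO from het was −3.69 (SE 0.68, adjusted p = 0.0111) and that of del from het −2.85, the latter short of the threshold (adjusted p = 0.572). The MZKO call was lost when het 1, het 5 or het 7 was left out, at an adjusted p of up to 0.0825, although het then still held 2 embryos above all others.

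Tie1, a receptor tyrosine kinase known from blood vessel endothelium, stood at 54.0, 34.2 and 68.0 CPM in het and at 45.2 to 60.9 CPM in del. In MZKO the median was 0.517 CPM and MZKO 3 was highest with 26.6 CPM. Its log2 difference of −4.11 (SE 0.89, adjusted p = 0.0441) was lost when any 1 of MZKO 2, 4 or 6 or any het embryo was left out, at an adjusted p of up to 0.262. Gm4779, an X-linked predicted gene, was at most 1.84 CPM in MZKO and 14.3, 11.8 and 44.2 CPM in het (−4.04, SE 0.82, adjusted p = 0.0271). Leaving out MZKO 2 or any het embryo ended that call, at an adjusted p of up to 0.359. Gm4779 shares stretches of 21 bases with 37 coding genes, so its reads may not be its own. Gm49187, an unconfirmed transcript on chromosome 15, stood at 69.3 to 142 CPM in het and 7.92 to 42.8 CPM in MZKO (−2.18, SE 0.48, adjusted p = 0.0490) and lost its call when MZKO 2, 4 or 8 or any het embryo was left out (adjusted p of up to 0.256).

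The 21 protein-coding genes that rose included Zswim5 and Impact far above their het levels. Zswim5 (ENSMUSG00000033948, chromosome 4, 116877376 to 116989264, plus strand) encodes a protein with a SWIM zinc finger. It stood at 4, 12.98 and 0.390 CPM in het 1, 5 and 7, at 22.7, 3.97, 5.17 and 24.97 CPM in del 2, 3, 4 and 6, and at 119 to 352 CPM in MZKO with a median of 188 CPM. No MZKO embryo came near the level of any het or del embryo. The log2 difference was 5.51 (SE 0.65, adjusted p = 0.000104), it was called against del as well (adjusted p = 0.00126), and it held when any 1 embryo was left out but not by voom (adjusted p = 0.0877).

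Impact, which is imprinted in the mouse with expression from the paternal allele, restrains the stress kinase GCN2 by binding its activator GCN1. Its level (ENSMUSG00000024423, chromosome 18, 12955852 to 12992950) was 19.4, 16.6 and 5.62 CPM in het and 63.3, 109 and 153 CPM in the lowest, median and highest MZKO embryo. The del embryos lay between the groups at 32.5 to 45.3 CPM and overlapped neither. Impact rose by a log2 difference of 3.04 (SE 0.39, adjusted p = 0.000290), the call was kept in all 20 alternatives, and it was the only 1 of 30 tested autosomal imprinted genes to pass. The integrated stress and unfolded protein response list, to which GCN2 signalling leads, had 0 called genes of 29 tested in limma, with 2 higher and 1 lower at an unadjusted p under 0.05. Among all tested genes 0.412% were called higher and 0.0703% lower, and 5.05% and 3.61% at the unadjusted level. At such shares, 0 of 29 does not set this list apart from all genes.

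Taok1 and Slc38a6 also rose in all 20 alternatives. Taok1, a kinase that acts upstream of stress-activated and Hippo signalling, stood at 61.4, 58.0 and 39.1 CPM in het and at 130, 252 and 371 CPM in the lowest, median and highest MZKO embryo (log2 difference 2.21, SE 0.31, adjusted p = 0.000996). The del embryos, at 126 to 211 CPM, were above het and overlapped MZKO. Taok1 was the only called gene of 21 tested in the Hippo list, while 0.412% of all tested genes were called higher. At an unadjusted p under 0.05 in limma, 4 of the 21 were higher and 0 lower, against 5.05% and 3.61% of all tested genes. Slc38a6, an amino acid transporter family member, stood at 87.2, 150 and 117 CPM in het, 179 to 367 CPM in del and 373 to 1158 CPM in MZKO (2.43, SE 0.36, adjusted p = 0.00148).

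Other protein-coding genes rose less or less firmly. B3gnt7, which adds N-acetylglucosamine to glycan chains, stood at 1.81, 0 and 0.0556 CPM in het and at 5.52 to 51.1 CPM in MZKO (3.90, SE 0.72, adjusted p = 0.0117), and its call was lost without MZKO 2, het 5 or het 7 (adjusted p of up to 0.0825). Ly96, the partner of the Toll-like receptor that senses lipopolysaccharide, stood at 2.17 to 8.56 CPM in het and 12.7 to 58.7 CPM in MZKO (2.74, SE 0.50, adjusted p = 0.0102). The del embryos carried Ly96 at 29.0 to 39.0 CPM, within the MZKO range, and the call was lost without het 7 (adjusted p = 0.103). Rises of 2.05 (SE 0.39) in Abhd6, a lipase of monoacylglycerols, 2.01 (SE 0.34) in Rab3gap1, a regulator of Rab GTPases, and 1.98 (SE 0.35) in Ktn1, the kinesin anchor kinectin, passed at adjusted p = 0.0155, 0.00473 and 0.00718. These 3 calls were lost without het 7, that of Abhd6 also without het 1, at adjusted p of up to 0.156. Abl2, a non-receptor tyrosine kinase, rose by 1.89 (SE 0.40, adjusted p = 0.0387) and lost its call when any MZKO or het embryo other than MZKO 1 was left out (adjusted p of up to 0.173).

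Enzymes and organelle proteins stood among the smaller rises. Ahcy, which breaks down S-adenosylhomocysteine and so sustains methylation, was at 57.5 to 85.6 CPM in het and 125 to 431 CPM in MZKO (1.79, SE 0.35, adjusted p = 0.0217), and lost its call without MZKO 2, 3 or 6 or any het embryo (adjusted p of up to 0.116). P4hb, the protein disulfide isomerase of the endoplasmic reticulum, was at 289 to 421 CPM in het and 653 to 995 CPM in MZKO, and rose by 1.24 (SE 0.25, adjusted p = 0.0296). That call needed every MZKO embryo but MZKO 1 and every het embryo but het 1 (adjusted p of up to 0.262). Mrps16, of the same ribosomal subunit as Mrps2, was at 30.6, 43.9 and 66.9 CPM in het, 70.7 to 172 CPM in MZKO and 138 to 192 CPM in del. Its rise of 1.41 (SE 0.31, adjusted p = 0.0479) was lost without any 1 of 7 embryos, which were all but MZKO 1 and het 7, at an adjusted p of up to 0.144. In the list of the mitochondrial ribosome and translation, Mrps16 rose and Mrps2 fell, and the other 81 of 83 tested genes did not pass. At an unadjusted p under 0.05 in limma, 1 of the 83 was higher and 5 were lower, Mrps16 and Mrps2 included. Among all tested genes 5.05% were higher and 3.61% lower at that level, and 0.412% and 0.0703% passed. The remaining protein-coding rises, in Noct, Kif24, Ficd, Lrpprc, Slc20a1 and 4930402H24Rik, had log2 differences of 1.38 to 1.86 at adjusted p of 0.00212 to 0.0412. The call of 4930402H24Rik was kept when any 1 embryo was left out. Those of Kif24 and Ficd were each lost without any 1 of 7 embryos, that of Lrpprc without any 1 of 6, that of Noct without MZKO 2, het 1 or het 7 and that of Slc20a1 without het 5 or het 7, at adjusted p of up to 0.165.

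**Figure D2:**
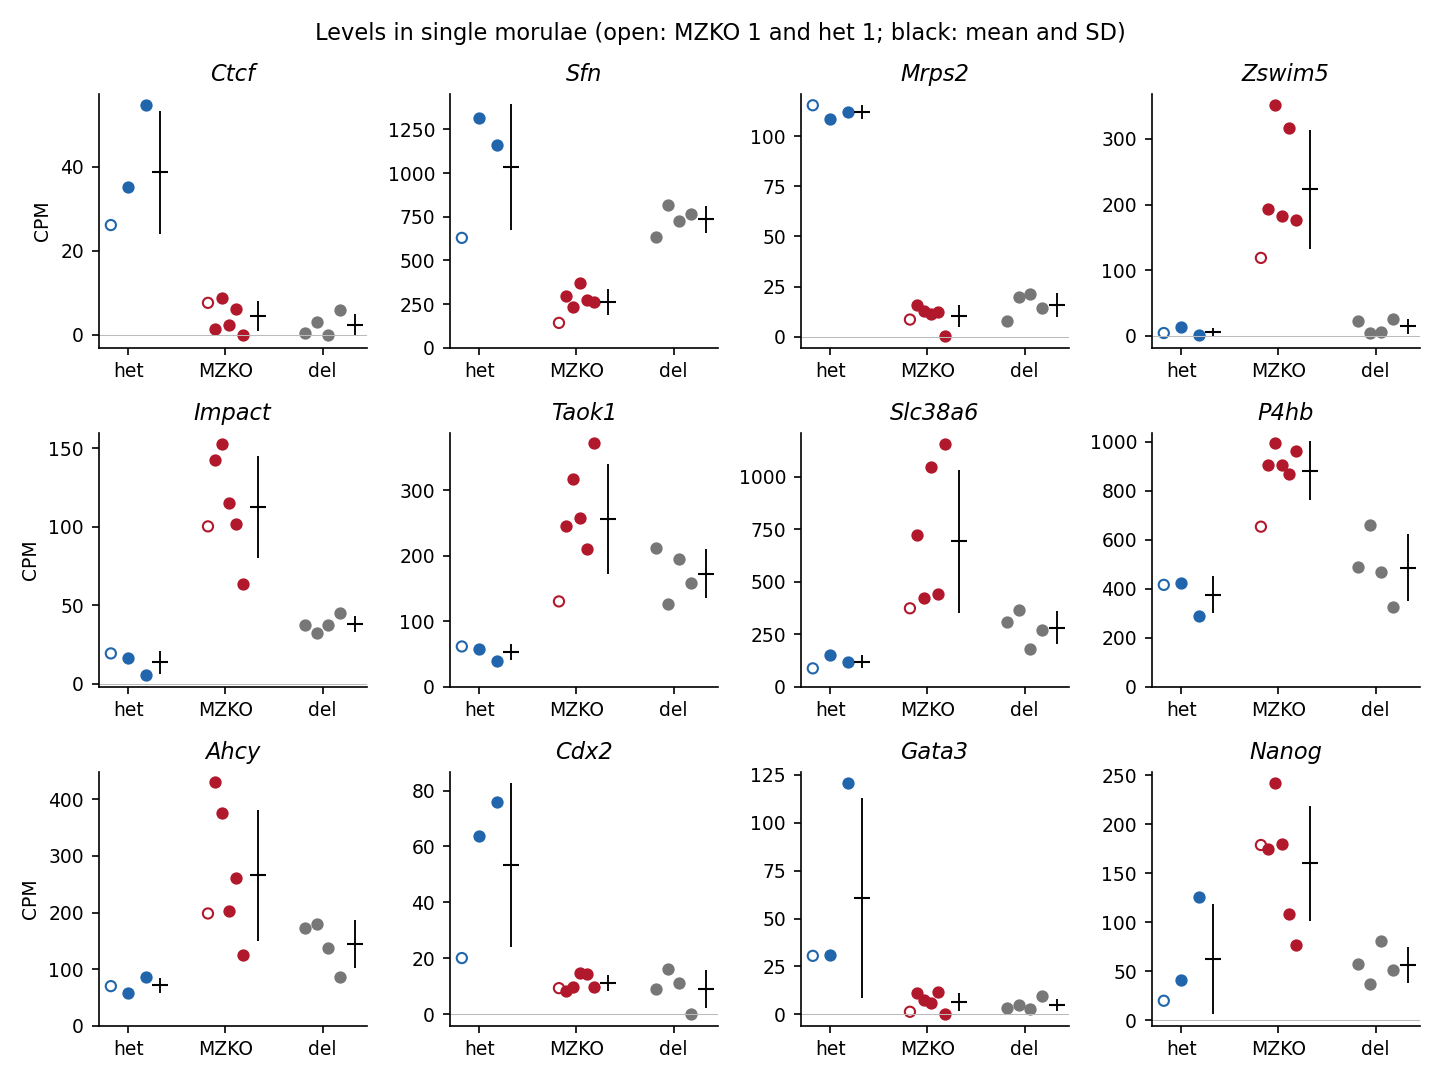
Levels in CPM of 12 genes in single morulae, with 1 panel per gene and the groups het (blue, n = 3), MZKO (red, n = 6) and del (grey, n = 4) on the x axis. Open points are MZKO 1 and het 1, and black marks give the mean and SD. MZKO and het points are apart for 11 of the genes and overlap for Nanog, and Cdx2, Gata3, Nanog and Ctcf did not pass the threshold.

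The steepest differences lay in pseudogenes that copy other genes almost letter for letter. Of the 14 called pseudogenes, 11 were at least 94% identical to a coding gene, 9 of them higher and 2 lower in MZKO. The 9 higher copies stood at 11.4 to 782 CPM in MZKO, at 0.612 CPM or less in every het embryo and at 4.06 CPM or less in every del embryo. They copy Rpl3 and Rpl36, proteins of the large cytosolic ribosomal subunit, Rpl15 of the same subunit (3 copies), the histone deacetylase Hdac1 (3 copies) and Odc1, the first enzyme of polyamine synthesis. Pseudogenes were called in 14 of 251 tested cases (5.58%), protein-coding genes in 25 of 9351 (0.267%). The 9 higher copies reached the filter of 10 CPM in 3 morulae only through the MZKO embryos. A copy near 0 in all morulae was never tested, so these 2 shares cannot be compared. The sequences below show how little separates a copy from its gene. They are stretches of 60 bases of the GENCODE M21 transcripts, 5′ to 3′, with the bases that differ within a pair in capitals.
Rpl3-ps1: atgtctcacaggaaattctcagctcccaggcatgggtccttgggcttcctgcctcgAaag
Rpl3: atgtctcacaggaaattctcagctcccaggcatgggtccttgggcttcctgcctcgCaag
Rps19-ps6: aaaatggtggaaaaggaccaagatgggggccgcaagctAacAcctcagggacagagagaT
Rps19: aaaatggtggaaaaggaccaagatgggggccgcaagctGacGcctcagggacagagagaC
Gm28438: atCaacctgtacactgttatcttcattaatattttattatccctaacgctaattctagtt
mt-Nd3: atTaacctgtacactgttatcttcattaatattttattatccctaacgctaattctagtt

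Rpl3-ps1 (ENSMUSG00000084349, chromosome X, 13202571 to 13203780) differs from the Rpl3 transcript at 2 of 1210 aligned bases, C137A and T866C, counted from the 5′ end of the Rpl3 transcript with its base first. It was at 0, 0 and 0.111 CPM in het 1, 5 and 7, at 1.35, 0, 0 and 0 CPM in del 2, 3, 4 and 6, and at 301, 626 and 782 CPM in the lowest, median and highest MZKO embryo. The MZKO embryos all carried reads that the counting gave to the copy, and the other 7 morulae next to none. The log2 difference was 9.03 (SE 0.47, adjusted p = 1.36e-09). Rpl3 itself stood at 1078 ± 237 CPM in MZKO and 1940 ± 550 CPM in het (SD, n = 6 and 3; log2 difference −0.83, SE 0.27, adjusted p = 0.25), and the sum of gene and copy at 1651 ± 382 and 1941 ± 550 CPM. In blastocysts Rpl3-ps1 was at 0.0833 ± 0.144 CPM in MZ_KO and 1.29 ± 2.30 CPM in het (SD, n = 3 and 4) and was not tested. Rpl3-ps1 was the only 1 of the 9 higher copies with blastocyst values, so their rise was seen in morulae only.

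Gm10093, 99.4% identical to Hdac1, was at 137 to 311 CPM in MZKO, at 0.0645, 0 and 0 CPM in het and at 0 CPM in all 4 del embryos (7.68, SE 0.52, adjusted p = 5.52e-08). Hdac1 stood at 724 ± 175 CPM in MZKO and 881 ± 275 CPM in het and did not pass (adjusted p = 0.853). Gm10020, which differs from Rpl15 at 2 of 612 aligned bases, was at 60.7 to 171 CPM in MZKO and 0.224 CPM or less in het (6.82, SE 0.57, adjusted p = 1.10e-06), and Gm5745, a copy of Rpl36, rose by 6.28 (SE 0.71, adjusted p = 5.88e-05). For Gm8420 and Gm7993, with 0 reads in every het embryo, the MZKO mean was at least 426-fold and at least 731-fold higher than the 3 reads over the het group that a count of 0 allows, a floor that covers counting error only and neither the spread between embryos nor the sharing of reads between copies. All 9 calls were kept when any 1 embryo was left out, all 9 copies were also above del (adjusted p of at most 0.00320), and by voom none of the 9 passed (adjusted p of 0.130 to 0.358). Gm10282 is annotated as coding but 99.3% identical to Hmgn2, a nucleosome-binding protein, and showed the same pattern with 15.4 to 52.1 CPM in MZKO and at most 0.645 CPM in het and del (4.5, SE 0.76, adjusted p = 0.00473).

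Another 2 copies fell. Rps19-ps6 (chromosome 12, 110898114 to 110898551), 98.9% identical to Rps19, was at 36.3, 72.3 and 128 CPM in het, at 54.5, 7.09, 7.98 and 2.32 CPM in del and at most 2.05 CPM in MZKO (−5.74, SE 0.87, adjusted p = 0.00148). Rps19 did not pass (log2 difference −0.22, adjusted p = 0.886). Gm28438, on chromosome 1 (24612775 to 24613119), matches the mitochondrial gene mt-Nd3 at all but 1 of 345 aligned bases, T3C counted from the start of mt-Nd3 with its base first. It stood at 179, 117 and 167 CPM in het, at 139 to 412 CPM in del, and at 1.89 CPM in MZKO 2 and 0 CPM in the other MZKO embryos (−7.00, SE 0.51, adjusted p = 1.50e-07). mt-Nd3, a subunit of respiratory complex I, showed the mirror image, with 11.2, 9.68 and 13.1 CPM in het, 6.74 to 29.6 CPM in del and 113 to 308 CPM in MZKO (4.02, SE 0.43, adjusted p = 3.97e-05). The sum of both was 211 ± 79.3 CPM in MZKO and 166 ± 34.1 CPM in het (SD, n = 6 and 3), and the ranges of the sum overlapped. How reads were shared between these nearly identical genes was not tested. The other 14 mitochondrially encoded genes had log2 differences of −0.20 to 0.77 and none passed, with the smallest adjusted p at 0.463 and 3 of all 15 genes, mt-Nd3 included, higher at an unadjusted p under 0.05.

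**Figure D3:**
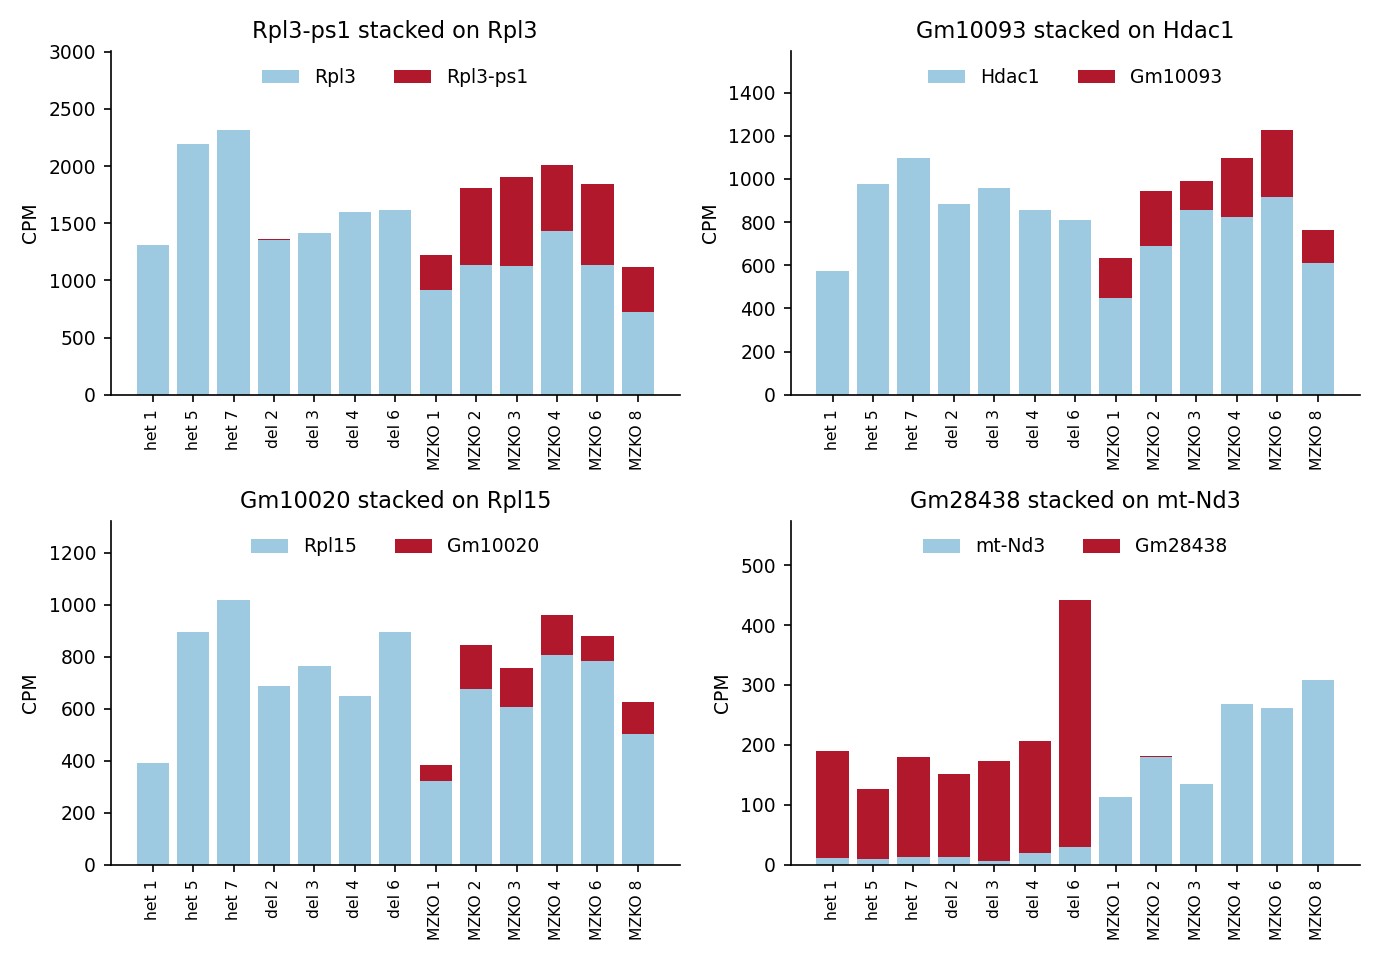
Stacked bars give the CPM of a gene (light blue) and of its copy (red) in each of the 13 morulae, for Rpl3 with Rpl3-ps1, Hdac1 with Gm10093, Rpl15 with Gm10020 and mt-Nd3 with Gm28438. In the first 3 panels red is seen in the 6 MZKO embryos and next to none in the 7 het and del embryos, and in the last panel het and del are nearly all red and MZKO nearly all blue.

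Among the 41 higher genes, 15 (36.6%) had MZKO 4 and MZKO 8 as their highest embryos, against 6.14% of all tested genes, a pattern noticed after the values were seen. They included Slc38a6 (1046 and 1158 CPM in MZKO 4 and 8, 724 CPM or less in the other 4), the antisense transcript Gm29084 (1044 and 1089 CPM, 641 CPM or less), Gm42860 (1039 and 1142 CPM, 838 CPM or less), Rab3gap1, Kif24 and Noct, an enzyme that removes phosphate from NADP. Of the 15, 10 are not protein-coding. Gm9864 and Gm48368 among them resemble Noct (88.3% and 81.4% identity), and Gm29084 lies within Pard3b on the other strand, which the kit does not tell apart. The oocyte transcript list summed to 130 and 174 CPM in MZKO 4 and 8, to 79.2 to 116 CPM in the other MZKO and to 49.9 to 103 CPM in the het embryos. In del its sum was 94.6 to 144 CPM, with del 2 above MZKO 4. The part of this list in these rises was not tested.

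No trophectoderm marker passed the threshold, and at an unadjusted p under 0.05 more were lower than higher. Cdx2, the transcription factor that sets up trophectoderm, was at 20.1, 63.8 and 76.0 CPM in het 1, 5 and 7, at 8.30 to 14.9 CPM in MZKO and at 0 to 16.3 CPM in del (adjusted p = 0.388), with means of 11.1 ± 2.84 CPM in MZKO and 53.3 ± 29.4 CPM in het (SD, n = 6 and 3). Gata3, its partner in that lineage, was at 30.5, 30.7 and 121 CPM in het, 0.0788 to 11.4 CPM in MZKO and 2.59 to 9.29 CPM in del (−3.22, SE 0.83, adjusted p = 0.114). For both genes the MZKO and het embryos did not overlap. Krt8, a keratin of the outer cells, overlapped, with 230 to 493 CPM in het and 69.9 to 547 CPM in MZKO (adjusted p = 0.775), the highest MZKO value being that of MZKO 1. Of 29 tested trophectoderm genes 0 passed, and the median log2 difference was −0.21. At an unadjusted p under 0.05, 6 were lower (Cdx2, Gata3, Klf5, Dab2, Cldn4 and Ptges) and 1 was higher (Hand1, a transcription factor of later trophoblast, log2 difference 1.25, adjusted p = 0.206). Of all tested genes, 3.61% were lower and 5.05% higher at that level. The summed level of the list was 2458 to 3360 CPM in MZKO, 3674 to 4357 CPM in het and 2103 to 3584 CPM in del. In whole embryos fewer cells of a type and less RNA per cell cannot be told apart.

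Pluripotency markers showed no called change either. Nanog, which marks the future epiblast, was at 20, 41.2 and 126 CPM in het and 76.9 to 242 CPM in MZKO (log2 difference 1.65, SE 0.46, adjusted p = 0.170), and the groups overlapped through het 7. Pou5f1 stood at 610 ± 167 CPM in MZKO and 714 ± 273 CPM in het (SD, n = 6 and 3; adjusted p = 0.905). The epiblast and pluripotency list had 0 called genes of 20 tested in limma and a median log2 difference of −0.08, and the primitive endoderm list 0 of 15 and 0.04. At an unadjusted p under 0.05, 2 genes of each list were higher and 0 lower, against 5.05% and 3.61% of all tested genes.

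The series title names a metabolic switch between morula and blastocyst. Few metabolic genes were called in morulae, as were few of all tested genes (0.412% higher and 0.0703% lower). Among 79 nuclear-encoded subunits of the respiratory chain 0 passed, while 13 were lower and 0 higher at an unadjusted p under 0.05, with a median log2 difference of −0.33. Of all tested genes, 3.61% were lower and 5.05% higher at that level. Ndufb7, a complex I subunit, is named because it is in a fixed list, and it fell more than the median. It was at 79.5 to 123 CPM in het and 32.6 to 77.2 CPM in MZKO (−0.94, SE 0.34, adjusted p = 0.358). Of the 79 subunits, 7 were lower with no overlap between MZKO and het embryos. Among all tested genes 4.25% showed no overlap, counted in either direction. Medians were −0.25 in the mitochondrial ribosome list, −0.30 over 82 cytosolic ribosomal proteins (0 called), 0.38 over 19 glycolytic genes (0 called) and −0.10 over 35 genes of pyruvate use and the tricarboxylic acid cycle (0 called). At an unadjusted p under 0.05, 2 cytosolic ribosomal genes were lower and 0 higher, 1 glycolytic gene was higher and 0 lower, and 2 pyruvate and cycle genes were lower and 0 higher. In the nucleotide, serine and one-carbon list Ahcy was the only called gene of 36 tested. Of the 44 lists, 43 had a tested member and 37 of these had no called member.

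**Figure D4:**
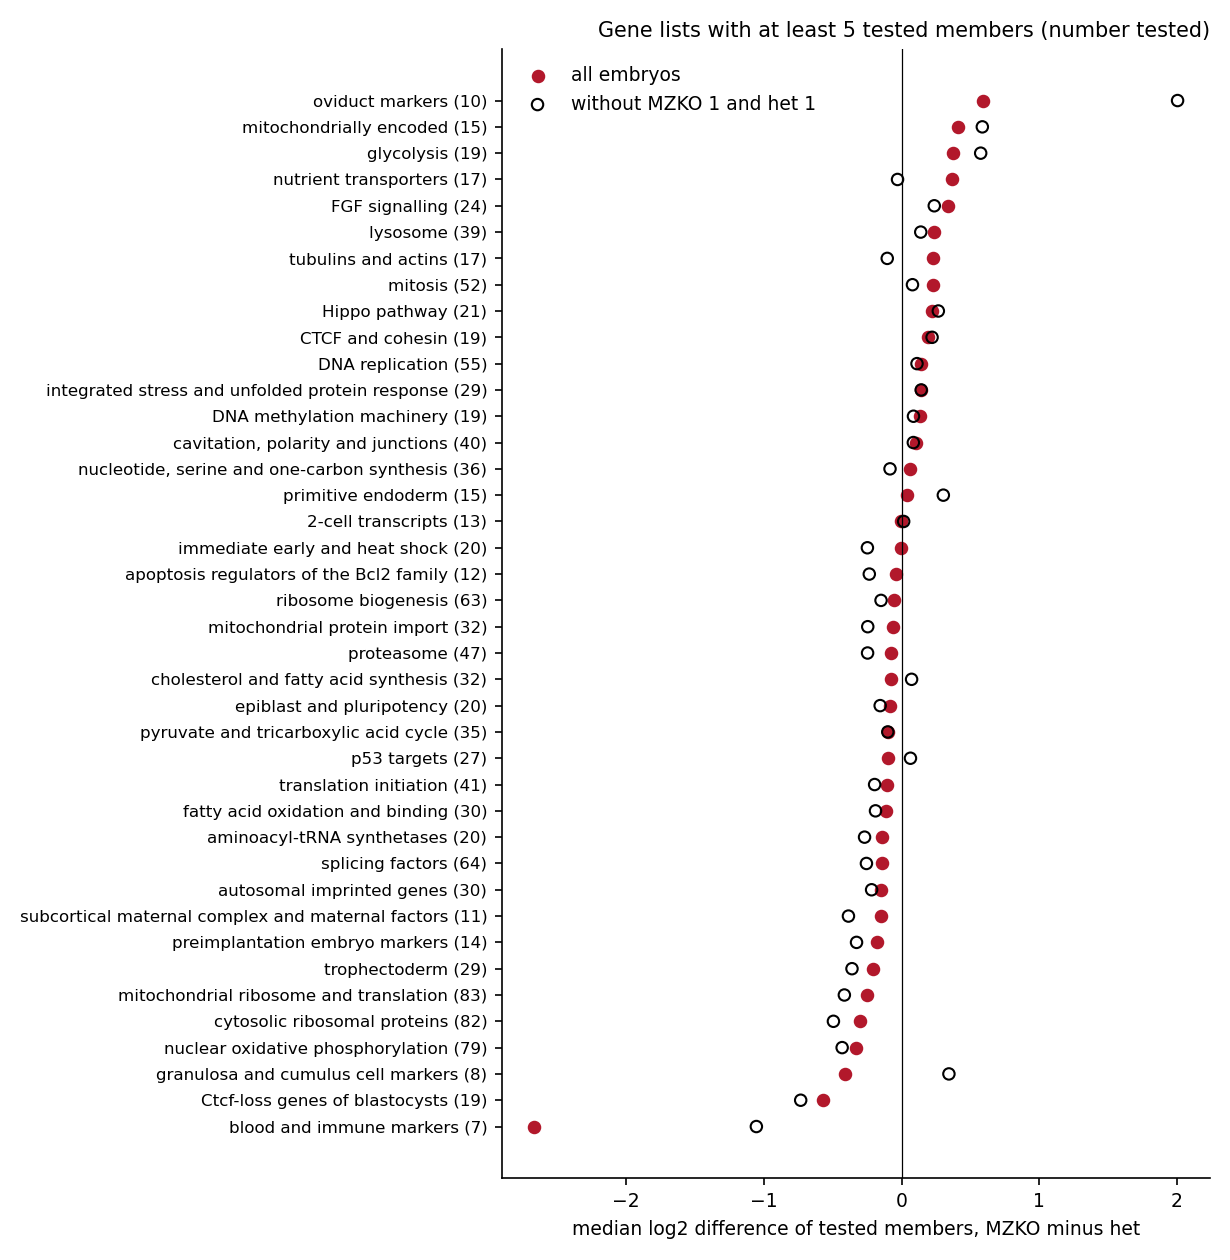
Each row is a gene list with at least 5 tested members, the number tested in brackets, and the x axis is the median log2 difference of MZKO minus het. Red points use all embryos and open points leave out MZKO 1 and het 1. The medians of the oviduct, granulosa and blood marker lists move most between the fits, and that of nuclear oxidative phosphorylation goes from −0.33 to −0.43.

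Calls were spread over the genome. Of all tested genes, 0.412% were called higher and 0.0703% lower. Chromosome 1 held the most calls with 8 of 577 tested genes (1.39%), chromosomes 6, 7, 10 and 19 held none, and the X chromosome held 2 of 268 (0.746%), Rpl3-ps1 and Gm4779. Of 15 mitochondrially encoded genes 1 was called (6.67%), mt-Nd3. None of the 72 tested genes within 5 Mb of Ctcf was called, and their median log2 difference was −0.07. With so low a share over all genes, 72 genes are too few to tell the region apart. The core letters of the CTCF motif, searched on both strands of the RefSeq promoters (250 bases before to 50 after the start), were in 12.8% of 9695 promoters of tested genes and in 5 of 26 promoters (19.2%) of the called protein-coding genes, of which 21 had a promoter in the table, those of 4930402H24Rik, B3gnt7, Ktn1, Lrpprc and Rab3gap1. This describes the letters in these windows and no binding.

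The del morulae share the het embryos with the comparison. Against het, 0 genes (0%) were higher in del and 1 (0.01%) lower, with 503 genes at an unadjusted p under 0.05. The lower gene was Adprhl2, a hydrolase of ADP-ribose, at 33.8, 86.6 and 67.3 CPM in het, 6.34 to 27.7 CPM in MZKO and 0 to 5.96 CPM in del, with log2 differences from het of −4.89 in del and −2.07 in MZKO (adjusted p = 0.296 in MZKO). Against del, 14 genes were higher (0.141%) and 4 lower (0.0402%) in MZKO.

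At the blastocyst stage the same contrast called many more genes, 673 higher (7.02%) and 1038 lower (10.8%) of 9585. The total of 1711 was 1058 without MZ_KO 2. Of the 41 morula rises 26 were tested there, and 2 were also higher in MZ_KO blastocysts (Ahcy and Mrps16) and 1 lower (P4hb). Of the 7 morula falls 4 were tested, and 1 was lower there (Mrps2) and 1 higher (Gm49187). Mrps2 fell by 3.54 on the log2 scale in blastocysts (SE 0.31, adjusted p = 1.87e-06), from 108 ± 21.5 CPM in het to 9.65 ± 7.13 CPM in MZ_KO (SD, n = 4 and 3). Mrps16 rose by 1.95 (SE 0.22, adjusted p = 2.80e-05). Conversely, of 640 genes higher in MZ_KO blastocysts and tested in morulae 2 (0.312%) were called higher there, against 0.412% of all genes tested in morulae, and of 911 lower genes 1 (0.11%) was called lower, against 0.0703%. Both shares lie near those of all genes. Their median morula log2 differences were −0.10 and −0.10.

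The difference between the stages was tested itself, with each effect taken within its own table. It passed for 138 of 8572 genes (1.61%), and for 19 of the 30 called morula genes tested at both stages. Those 30 genes were chosen by the same morula values that enter this test. A pass was thus favoured for them in advance, and the 2 shares cannot be compared. Batch and stage cannot be told apart in the stage difference. The count of 138 became 750 without MZKO 1 and het 1, 706 without het 1 alone, 220 without MZKO 1, 89 without het 5 and 53 without het 7. Leaving out 1 blastocyst gave 55 (MZ_KO 6), 67 (het 6), 73 (MZ_KO 2), 83 (het 3), 91 (het 5), 115 (MZ_KO 7) or 130 (het 8). Of the genes called at both stages, 2 went in opposite directions, P4hb with 1.24 in morulae and −0.98 in blastocysts (difference 2.22, SE 0.30, adjusted p = 0.000275) and Gm49187 with −2.18 and 1.44 (difference −3.62, SE 0.65, adjusted p = 0.00364). Zswim5 (5.51 and 0.73, adjusted p of the difference 0.00807), Impact (3.04 and −0.36, adjusted p = 0.00470) and Sfn (−1.96 and −0.14, adjusted p = 0.00552) differed too. Mrps2 (−3.69 and −3.54, adjusted p = 0.944) and Mrps16 (1.41 and 1.95, adjusted p = 0.487) did not differ past the threshold. Some genes were listed because earlier results of these blastocysts had shown them, and the blastocyst values also enter this test. A stage difference was thus favoured for them in advance. For 2 examples among them, the morula difference did not pass and differed from the blastocyst one. Gfm1, a mitochondrial elongation factor, had −0.77 in morulae and −5.30 in blastocysts (adjusted p of the difference 0.00120), and Fabp5, a fatty acid-binding protein, −1.40 and −4.33 (adjusted p = 0.0346).

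**Figure D5:**
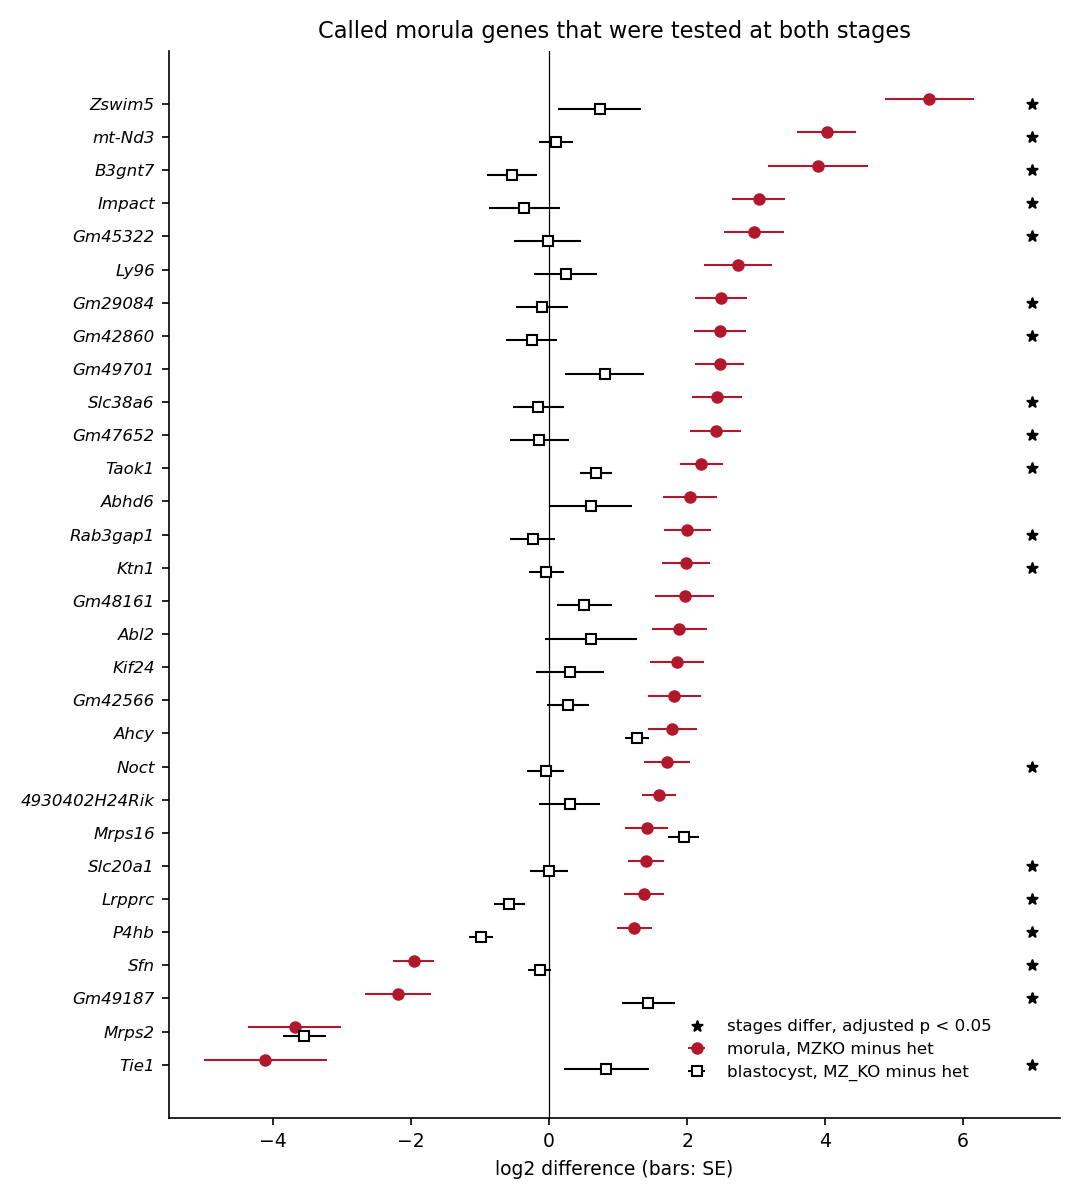
The 30 called morula genes that were also tested in blastocysts, with the log2 difference of MZKO minus het in morulae (red circles) and of MZ_KO minus het in blastocysts (open squares) and bars of 1 SE. Stars mark the 19 genes whose difference between the stages passed an adjusted p of 0.05. The 30 genes were chosen by morula values that also enter that difference. Of the 5 genes called at both stages, Mrps2, Mrps16 and Ahcy lie on the same side and P4hb and Gm49187 on opposite sides.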

How the data were processed

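Values were 1 table of log2 numbers per stage, deposited by the authors, which behaved as log2 CPM with 0.5 reads added. The builds GRCm38 and mm10 and the tools RSEM 1.3.1, cutadapt 1.14 and Bowtie2 2.2.9 are listed per the submitters' processing notes, without their roles, and the strand setting is not given. The logarithm and offset were undone, which gave whole reads for 100% of values within 0.01 reads. GENCODE M21 held 16731 of the 16745 morula genes, and no column belonged to another sample (0 such columns). Tests ran on log2(CPM + 1) with limma 3.58.1 in R 4.3.3, with the groups of a table in 1 fit, trended moderated variance, two-sided tests and Benjamini-Hochberg adjustment over all genes tested. The Ctcf level was compared by an exact permutation test in SciPy 1.17.1, doubling the smaller tail. The pipeline was tested on simulated data. Copies were found by shared stretches of 21 bases between GENCODE transcripts and aligned with Biopython 1.88, and figures were drawn with matplotlib 3.10.9. Titles gave groups and embryo numbers. Nothing says which embryos share a mother, so p-values measure only the spread between these embryos. Pairs of embryos in a group differed far beyond counting noise (chi-square per degree of freedom at least 65.1). How reads of near-identical copies were shared is not stated, so pseudogene values are uncertain, as are those of genes that overlap others, since the kit does not mark strand.

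Named genes were, among called protein-coding genes outside the Y chromosome with no overlap between groups, the 12 largest rises and the falls, up to 3 called genes per list, Ctcf and 2 fixed lists, and the 4 largest rises and falls of other classes; further called genes are named as part of a full list. The comparison and the gene lists were chosen with earlier results of these data known, and no list was tested as a set. Alternatives were another pseudocount, other filters, other scalings, only MZKO and het in the fit, del 6 left out, embryo weights, voom, a Y-linked covariate and each embryo left out, plus MZKO 1 and het 1 left out together, which was added after seeing the data.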

Additional observations from a re-analysis of the deposited data

Results flagged for a closer look

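The values below stand out by 1 of 2 criteria and are given without explanation. In the first, 1 MZKO embryo lay far from the other 5, which chance gives in about 1 of 20 groups and which was looked at in 82 genes. MZKO 1 was highest for Adh1 (23.2 CPM), B2m (263 CPM), Mrpl23 (4.61 CPM) and Tspan3 (66.0 CPM) and lowest for P4hb (653 CPM). MZKO 2 was highest for Gm28438 (1.89 CPM), MZKO 3 for Tie1 (26.6 CPM), MZKO 4 for Enpep (21.7 CPM), MZKO 6 for Gm4779 (1.84 CPM) and MZKO 8 for Gfm1 (126 CPM).

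In the second, the effect of the MZ genotype differed between morula and blastocyst at an adjusted p under 0.05 in limma, given here as the morula log2 difference minus the blastocyst one. Among genes called in morulae it was 4.78 for Zswim5, 4.43 for B3gnt7, 3.92 for mt-Nd3, 3.39 for Impact, 2.98 for Gm45322, 2.73 for Gm42860, 2.60 for Gm29084, 2.59 for Slc38a6, 2.56 for Gm47652, 2.25 for Rab3gap1, 2.22 for P4hb, 2.02 for Ktn1, 1.96 for Lrpprc, 1.76 for Noct, 1.53 for Taok1, 1.41 for Slc20a1, −1.83 for Sfn, −3.62 for Gm49187 and −4.94 for Tie1. Among the fixed genes it was 4.69 for Adprhl2, 4.53 for Gfm1, 2.93 for Fabp5, −1.57 for Dppa3, −2.53 for Rab29 and −2.69 for Fstl3.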

How the results depend on the processing

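The count of 48 calls lay within 1.5 times of itself in every setting except embryo weights (234) and voom (28), and between 29 and 90 with 1 MZKO or het embryo left out. None of the 48 changed sign in 20 alternatives, 10 were kept in all of them (Sfn, Impact, Taok1, Slc38a6, mt-Nd3, 4930402H24Rik, Gm29084, Gm42860, Gm47652 and Gm49701), 14 were lost under voom alone, 24 were lost when at least 1 embryo was left out, and 28 were kept with the Y-linked covariate. The cause was not tested. The Ctcf difference lay between −40.5 and −26.3 CPM with 1 embryo left out and was −41.2 CPM without MZKO 1 and het 1 (exact permutation p = 0.0952, the smallest possible). The blastocyst count of 1711 lay between 1058 and 1603 with 1 embryo left out. The count of genes that differed between the stages was 138, with 53 to 706 when 1 embryo was left out, 750 without MZKO 1 and het 1 and 228 on CPM over the read total. No paired analysis was possible because MZKO and het share only 1 embryo number, and their title prefixes differ. With 3 het embryos, many calls near the threshold rest on 1 library.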
